A study of Homo sapiens with 12 samples.

Results

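A1BG encodes alpha-1-B glycoprotein, a plasma protein built of immunoglobulin-like domains, and A1BG-AS1 is a long non-coding RNA transcribed from the opposite strand of the same locus. Both genes were chosen because of their values on these arrays, so what follows on their levels is a description without a test. They are 2 of the 14884 named genes of the series, each measured by 1 probe set. HepG2 is an established cell line from 1 human liver tumour that keeps many traits of hepatocytes, and 1 allele of its β-catenin gene lacks the exon that encodes the sites through which the protein is marked for degradation. The cells therefore hold a truncated, stabilised β-catenin beside the full-length protein. Every group is this line at 120 h with 1 small interfering RNA. It was a non-targeting control in siCtrl, and it was directed at the wild-type transcript in sißCat-WT, at the mutated one in sißCat-mut and at both in sißCat-both, with 3 arrays in each of the 4 groups and 12 in all. The labels speak of triplicates without naming separate cultures, so the spread and the p-values below describe differences between samples that may be technical. The targeted gene was not analysed here, so the knockdown itself rests on the labels.

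Alpha-1-B glycoprotein is made by hepatocytes and secreted into blood, where it is known as a binding partner of the cysteine-rich secretory protein CRISP3; its physiological role is poorly defined. An antisense RNA overlaps a coding gene on the other strand, and such RNAs may be transcribed together with their partner or independently of it. β-catenin joins cadherins at cell contacts and is also the transcriptional effector of Wnt signalling, which in liver separates the gene programmes of the pericentral and periportal zones.

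The coordinates that follow are those of RefSeq on GRCh38.p14. A1BG lies on the minus strand of chromosome 19 at chr19:58345183-58353492 and A1BG-AS1 at chr19:58351970-58355183. The gene spans share 1523 bases, which are 18.3% of the A1BG span and 47.4% of the A1BG-AS1 span, and A1BG-AS1 reaches 1691 bases beyond the start of A1BG. At its far end A1BG-AS1 also shares 827 bases (25.7% of its span) with ZNF497, a zinc finger gene on the same strand as A1BG. The labelling protocol describes single-stranded cDNA targets, so the probe sets read 1 strand each, but where their probes lie within the overlaps is not known from the sources used. The 250 bases before the A1BG start are shown because they lie wholly within the span of A1BG-AS1, the RNA whose level is described beside that of A1BG. They are chr19:58353493-58353742, minus strand, 5′ to 3′, with the only match to a searched motif in capitals.

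A1BG upstream sequence: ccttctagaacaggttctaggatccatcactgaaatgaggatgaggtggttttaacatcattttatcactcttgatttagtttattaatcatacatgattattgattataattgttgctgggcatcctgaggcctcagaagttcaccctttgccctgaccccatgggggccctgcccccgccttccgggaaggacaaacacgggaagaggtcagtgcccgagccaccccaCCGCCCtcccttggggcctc

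The capitals are a reverse-strand match to the Sp1 motif GGGCGG, which starts 20 bases before the gene; 42.6% of the 35116 RefSeq windows of this length hold that motif on either strand. The TCF/LEF motifs CTTTGAT and CTTTGAA, through which β-catenin is recruited to DNA, are not among these letters, and 2.26% and 3.80% of all windows hold them. The other motifs searched on both strands had no match here either: the short HNF1 motif GTTAAT (6.23% of windows), HNF4 CAAAGTCCA (0.325%), C/EBP TTGCGCAA (0.131%) and TTGCACAA (0.655%), FOXA TGTTTAC (2.98%), the CCAAT box (32.0%) and the TATA box TATAAA (10.7%). With 1 match in the window, no matches overlapped. The part of the window farther from the start is AT-rich, with 32.8% G and C in 125 bases, and the 125 bases next to the start hold 68.8%. A1BG-AS1 had no entry among these windows.

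A1BG was lowest after sißCat-WT, above the control after sißCat-both and highest after sißCat-mut. The siCtrl arrays stood at log2 intensities of 8.36, 8.03 and 8.28, with a mean of 8.22 ± 0.17 (SD, n = 3). The sißCat-WT arrays stood at 7.86, 7.59 and 7.36 (mean 7.60 ± 0.25), all below the lowest control array. The sißCat-both arrays stood at 9.39, 8.70 and 8.81 (mean 8.97 ± 0.37), all above the highest control array and with the widest spread of the 4 groups. The sißCat-mut arrays stood at 10.70, 10.81 and 10.56 (mean 10.69 ± 0.13). No group overlapped the next in this order. In rank among all genes of an array group, A1BG stood above 73.6% of genes after sißCat-WT, 81.6% after siCtrl, 90.0% after sißCat-both and 98.1% after sißCat-mut.

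A1BG-AS1 was nearer the middle of the arrays, whose medians over all probe sets were 4.71 to 4.78. It stood at 5.32, 5.23 and 5.35 after siCtrl, a mean of 5.30 ± 0.06 (SD, n = 3). After sißCat-WT it stood at 5.28, 5.36 and 5.06 (mean 5.23 ± 0.16), and after sißCat-both at 5.57, 5.36 and 5.21 (mean 5.38 ± 0.18). These 3 groups overlapped and their order is not settled by the arrays. Only the sißCat-mut arrays were set apart, at 6.06, 6.04 and 5.89 (mean 6.0 ± 0.09), above every array of the other groups. The antisense RNA thus shared with A1BG the rise after sißCat-mut, while its values after sißCat-WT and sißCat-both did not separate from the control.

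**Figure D1:**
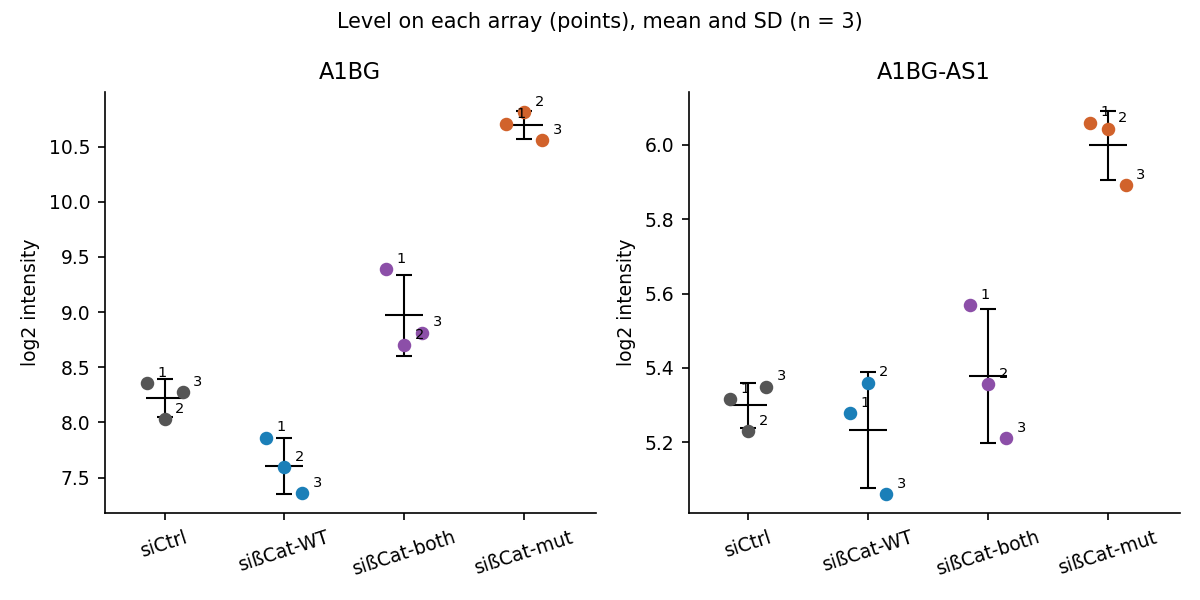
Log2 intensity of A1BG (left) and A1BG-AS1 (right) on each of the 12 arrays, with replicate numbers beside the points, and the group mean with its SD (n = 3). The 2 axes have different ranges: A1BG runs from 7.36 to 10.81 with 4 separate groups, and A1BG-AS1 from 5.06 to 6.06 with the sißCat-mut arrays alone apart.

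Against siCtrl, A1BG was 5.54-fold higher after sißCat-mut, a log2 difference of 2.47 ± 0.17 (standard error of the fit over all genes, n = 3 arrays per group). This was the 14th largest increase among 14884 genes. A1BG-AS1 differed by 0.70 ± 0.10 in the same comparison. Both members' arrays lay wholly above the controls, as did those of 20.0% of all genes, and since the members were chosen on these values nothing is read from that count.

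After sißCat-WT the log2 difference of A1BG from siCtrl was -0.62 ± 0.17, a 1.54-fold lower level, and that of A1BG-AS1 was -0.07 ± 0.10. Only A1BG of the 2 lay wholly below the controls, as did 14.8% of all genes. After sißCat-both the differences were 0.75 ± 0.17 for A1BG, a 1.68-fold higher level, and 0.08 ± 0.10 for A1BG-AS1, and again only A1BG lay apart (20.7% of all genes lay wholly above). The sign of the small A1BG-AS1 values depended on single arrays: its difference after sißCat-WT was 0.02 without sißCat-WT replicate 3, and after sißCat-both it was -0.02 without sißCat-both replicate 1.

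Set directly against each other, the single knockdowns were 8.51-fold apart for A1BG, with sißCat-mut above sißCat-WT by 3.09 ± 0.17 on the log2 scale. For A1BG-AS1 this difference was 0.76 ± 0.10. Both members lay wholly higher after sißCat-mut, as did 20.2% of all genes.

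Both members stood lower after the RNA against both transcripts than after the RNA against the mutated transcript alone. From sißCat-mut to sißCat-both A1BG fell by 1.72 ± 0.17 on the log2 scale, or 3.30-fold, the 15th largest decrease of 14884 genes. A1BG-AS1 fell by 0.62 ± 0.10, and both members lay wholly below the sißCat-mut arrays (17.4% of all genes did). Here "fell" describes the measured levels and no test. Compared with sißCat-WT, sißCat-both stood higher by 1.37 ± 0.17 for A1BG and by 0.15 ± 0.10 for A1BG-AS1, and only A1BG was without overlap (20.2% of all genes lay wholly higher).

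The design also allows the 4 groups to be set against the sum of the single knockdowns. The RNA of sißCat-both was 1 RNA of its own, not the 2 single ones combined. How far each RNA depleted its target was not analysed here. Whether the departures below come from unequal depletion or from the RNA itself was not tested. For A1BG the 2 single differences add up to more than the difference after sißCat-both, which departed from their sum by -1.11 ± 0.24 on the log2 scale. For A1BG-AS1 the departure was -0.55 ± 0.14. In both members it was negative, so the level after sißCat-both was below what adding the single log2 differences gives. These 7 comparisons share arrays, so their values are not independent of each other. By limma's adjusted p, 16.4% of all genes departed from additivity in either direction, and nothing is read from that for the members.

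Within groups the deviations of the 2 members from the group means had a Pearson correlation of 0.78 over the 12 arrays, given as a description because the 2 probe sets share every array and its processing. The lowest array was the same for both members in 3 groups: siCtrl replicate 2, sißCat-WT replicate 3 and sißCat-mut replicate 3. The highest array differed between the members in those groups, and the lowest differed in sißCat-both. There replicate 1 was the highest for both, at 9.39 for A1BG and 5.57 for A1BG-AS1. Without that array the A1BG difference between sißCat-both and siCtrl was 0.54 in place of 0.75.

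The genes beside the locus were not used to choose it and could be tested. ZSCAN22, a zinc finger and SCAN domain gene that ends 2851 bases from A1BG on its far side, stood at 6.26, 6.49 and 6.36 after siCtrl and at 6.34, 6.55 and 6.28 after sißCat-mut, so its groups overlapped. Its log2 change after sißCat-mut was 0.02 ± 0.10 (limma adjusted p = 0.912), after sißCat-WT 0.12 ± 0.10 (limma adjusted p = 0.543) and after sißCat-both -0.01 ± 0.10 (limma adjusted p = 0.946). ZNF497, the zinc finger gene that shares bases with A1BG-AS1 and lies 865 bases beyond A1BG, stood at 6.17, 6.12 and 5.96 after siCtrl and at 5.96, 6.12 and 5.76 after sißCat-mut. Its change after sißCat-mut was -0.14 ± 0.15 (limma adjusted p = 0.584), after sißCat-WT 0.18 ± 0.15 (limma adjusted p = 0.572) and after sißCat-both -0.05 ± 0.15 (limma adjusted p = 0.834). These 2 flanking genes did not pass the test after sißCat-WT, sißCat-mut or sißCat-both, where 10.2%, 25.6% and 33.6% of all genes were called. With 2 genes nothing is read from that count. Their standard errors were close to those of the members.

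Among the 10 measured genes on either side of the locus, most of which encode zinc finger proteins, few passed the test. After sißCat-mut 1 of the 20 rose and 1 fell, where 25.6% of all genes tested were called, and their median log2 change was 0.05 beside 0.01 over all genes. After sißCat-WT 0 rose and 1 fell by limma, with 3 at an unadjusted p under 0.05 (10.2% of all genes called; medians -0.0017 and 0.0054), and after sißCat-both 3 rose and 1 fell (33.6% of all genes called; medians 0.06 and -0.0062). The largest called change was that of ZNF329, which lies 190079 bases from A1BG and rose by 0.37 ± 0.11 after sißCat-mut (limma adjusted p = 0.0219) and by 1.30 ± 0.11 after sißCat-both (limma adjusted p = 7.68e-07). From sißCat-mut to sißCat-both, where A1BG stood lower, 3 of the 20 rose and 1 fell (22.2% of all genes were called). ZNF329 rose by 0.94 ± 0.11, ZNF256 by 0.72 ± 0.07 and ZNF544 by 0.50 ± 0.11 (limma adjusted p = 3.68e-05, 1.55e-05 and 0.00387). ZNF584, 48066 bases from A1BG, fell by 0.63 ± 0.16 (limma adjusted p = 0.0121), a call that ended without sißCat-both replicate 3 (0.0605) or sißCat-mut replicate 2 (0.0525). Against siCtrl, ZNF256, at the far end of the 20, fell by 0.27 ± 0.07 after sißCat-WT (limma adjusted p = 0.0312) and rose by 0.54 ± 0.07 after sißCat-both (limma adjusted p = 6.35e-05).

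The remaining calls against siCtrl were of ZNF544, ZNF274 and ZNF8. ZNF544 fell by 0.31 after sißCat-mut (limma adjusted p = 0.0462), and after sißCat-both ZNF274 rose by 0.24 (limma adjusted p = 0.0289) and ZNF8 fell by 0.24 (limma adjusted p = 0.0451). These calls, that of ZNF256 after sißCat-WT and that of ZNF329 after sißCat-mut ended when single arrays were left out. The ZNF256 call ended without any 1 of the 3 siCtrl or 3 sißCat-WT arrays (adjusted p = 0.0513 to 0.117), leaving 0 of 20 neighbours called after sißCat-WT. The ZNF329 call ended without siCtrl replicates 2 or 3 or sißCat-mut replicate 1 (adjusted p = 0.0555 to 0.106). The ZNF544 call ended without any 1 siCtrl or sißCat-both array, sißCat-WT replicate 2, or sißCat-mut replicates 2 or 3 (adjusted p = 0.0528 to 0.199), and 0 of 20 neighbours were called after sißCat-mut without siCtrl replicate 2 or without siCtrl replicate 3. The ZNF274 call ended without siCtrl replicates 1 or 2 or sißCat-both replicates 2 or 3 (adjusted p = 0.0541 to 0.0981), and with each of these arrays left out the count after sißCat-both was 2. The ZNF8 call ended without siCtrl replicates 1 or 2, sißCat-WT replicates 2 or 3, sißCat-both replicates 2 or 3, or any 1 sißCat-mut array (adjusted p = 0.0521 to 0.194), and ZNF8 and ZNF544 also lost it with renewed quantile normalization (0.0767 and 0.0512).

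**Figure D2:**
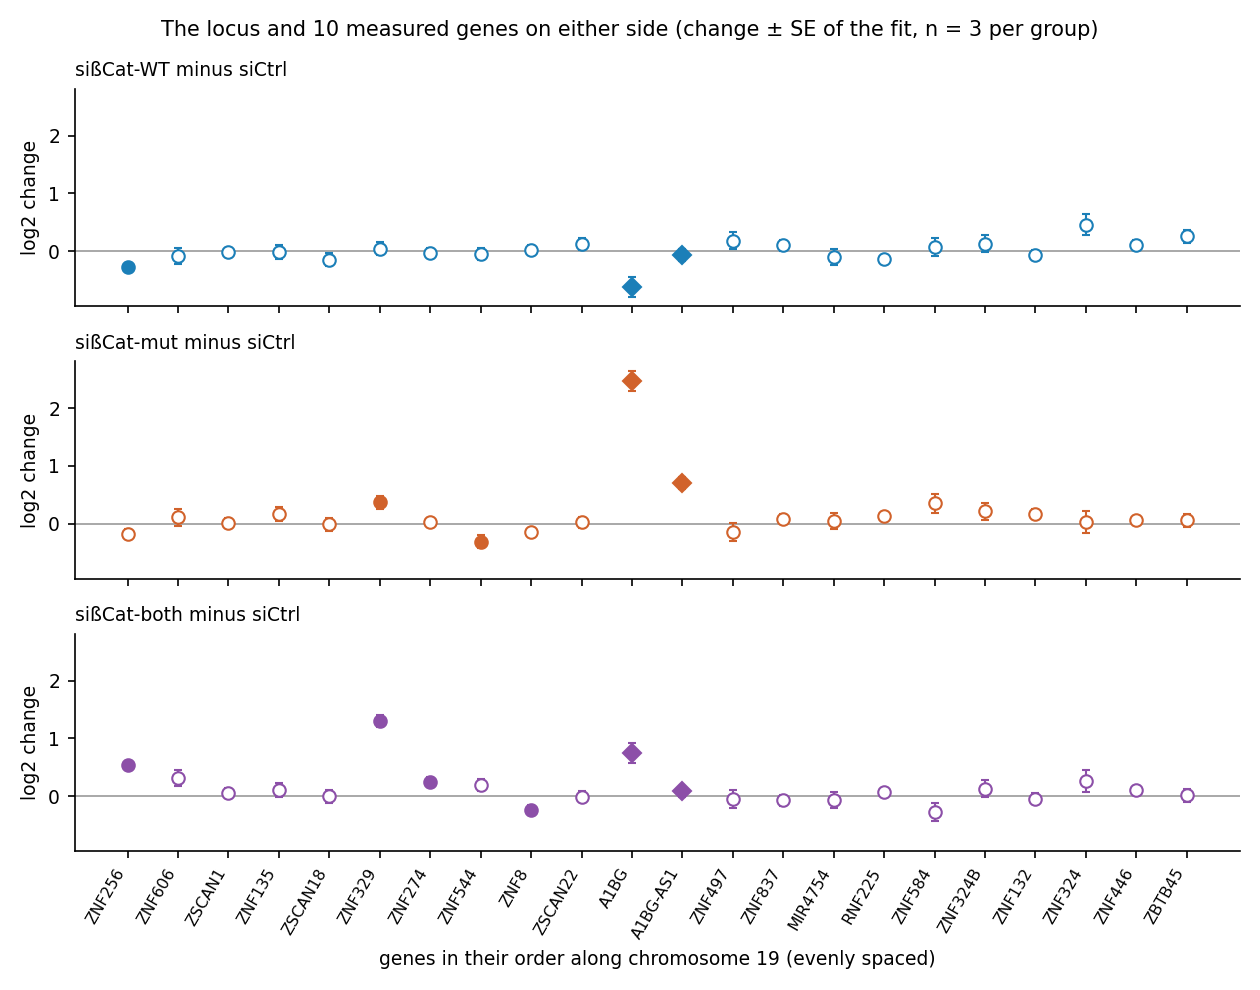
Log2 change against siCtrl (vertical axis, ± standard error of the fit, n = 3 arrays per group) of A1BG, A1BG-AS1 (diamonds) and 10 measured genes on either side (circles), in their order along the chromosome and evenly spaced. Filled circles passed limma's test at an adjusted p under 0.05; the members were not tested. A1BG at 2.47 after sißCat-mut stands between neighbours that range from -0.31 to 0.37.

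A1BG belongs to the plasma proteins that hepatocytes secrete. Of 51 listed genes of this class, most of them for glycoproteins but with ALB and TTR, whose products are not, 33 were measured, and A1BG is not among them. Earlier results on this class were known when the list was written, and the same arrays chose A1BG, so the class is described and gives no independent support. After sißCat-mut 26 rose and 0 fell by limma (27 had an unadjusted p under 0.05), with a median log2 change of 0.52 beside 0.01 over all genes. After sißCat-WT 1 rose and 14 fell, with a median of -0.19, and after sißCat-both 26 rose and 2 fell, with a median of 0.63. Of all genes, 25.6%, 10.2% and 33.6% were called in these comparisons. In these 3 comparisons the change of A1BG had the sign of the class median, and after sißCat-mut it was exceeded by 2 of the 33 genes: KNG1, which encodes kininogen, at 3.88 ± 0.105, and FETUB (fetuin B) at 3.34 ± 0.11 (limma adjusted p = 1.27e-10 and 1.41e-09).

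A1BG differed from KNG1, FETUB and HPX, the strongest risers of its class, in what sißCat-both did relative to sißCat-mut. It did not differ so from the next strongest, ITIH1, ITIH3 and PLG. ITIH1 was level (-0.002 ± 0.10, limma adjusted p = 0.991), and ITIH3 and PLG were lower after sißCat-both (limma adjusted p = 0.00507 and 0.0178). KNG1, FETUB and HPX, the haem carrier haemopexin, were higher after sißCat-both than after sißCat-mut, by 0.89 ± 0.105, 1.33 ± 0.11 and 0.98 ± 0.11 on the log2 scale (limma adjusted p = 4.69e-05, 4.05e-06 and 2.6e-05). Of the 26 genes that rose after sißCat-mut, 5 were higher and 8 lower after sißCat-both than after sißCat-mut, and 13 passed in neither direction. Over all genes that rose after sißCat-mut (1783), 270 were higher and 548 lower. Both comparisons use the same sißCat-mut arrays.

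The 8 class members that were lower were LRG1, CFB, PLG, TTR, F2, ITIH2, ITIH3 and CLU, named after their values were seen. The leucine-rich glycoprotein gene LRG1 had the largest of these decreases, by 0.99 ± 0.08 (limma adjusted p = 1.73e-06), followed by the complement gene CFB, which fell by 0.91 ± 0.09 (limma adjusted p = 1.14e-05). The transthyretin gene TTR, a thyroxine and retinol carrier, ran through the groups in the order of A1BG. Its group means were 11.53 after sißCat-WT, 11.70 after siCtrl, 12.61 after sißCat-both and 13.15 after sißCat-mut. PLG, the plasminogen gene, had the same order with means of 5.17, 6.82, 7.80 and 8.50, and its fall from sißCat-mut to sißCat-both was 0.71 ± 0.19 (limma adjusted p = 0.0178), a call that ended without sißCat-both replicates 1 or 2 or sißCat-mut replicate 1 (0.0563 to 0.0769). PLG shares near-identical sequence with a related gene, so its values may hold signal from both. The group means of AHSG, CLU, F2, F12, ITIH1, ITIH3 and TF also had the order of A1BG. For ITIH1 the last step was small, from 7.706 after sißCat-both to 7.708 after sißCat-mut. The same step did not pass for AHSG, F12 and TF either (limma adjusted p = 0.743, 0.785 and 0.293). F2 after sißCat-both stood only 0.01 above siCtrl. For these genes the order is one of means and not of separated groups. AHSG, F12 and TF were likewise named after their values were seen. None of the 33 genes fell as far from sißCat-mut to sißCat-both as A1BG, at -1.72. The nearest was the ceruloplasmin gene CP, which fell by 1.09 ± 0.16 (limma adjusted p = 0.00025) and had not passed the test after sißCat-mut.

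**Figure D3:**
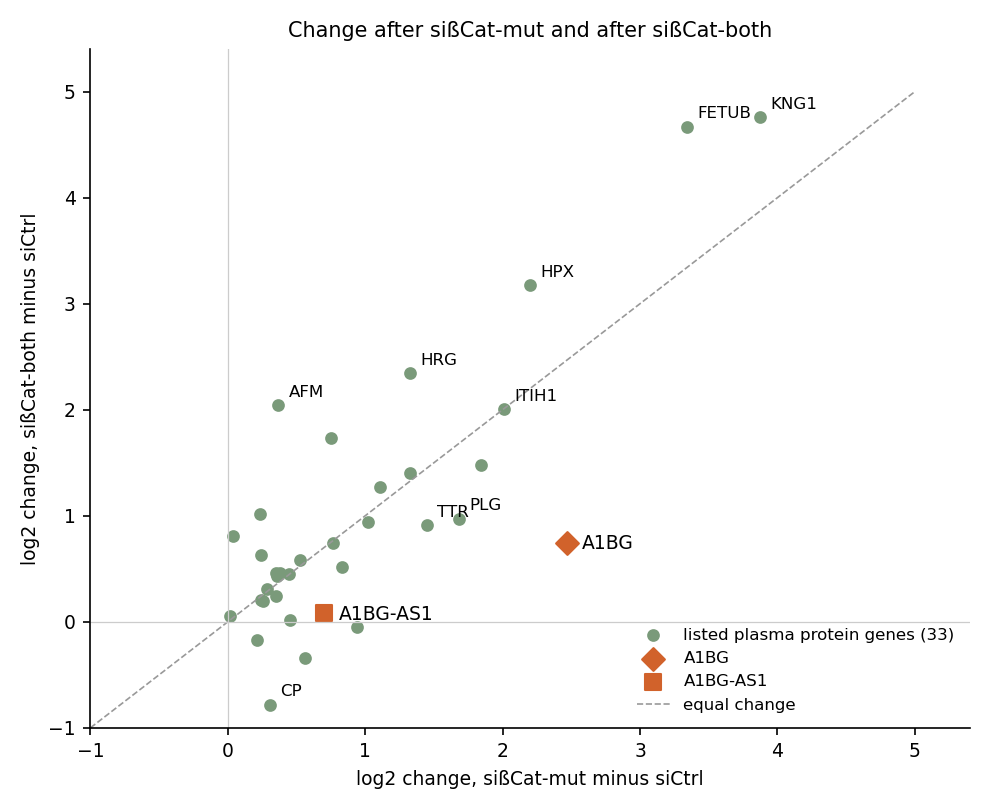
Log2 change after sißCat-mut (horizontal axis) and after sißCat-both (vertical axis), each against siCtrl, for 33 listed plasma protein genes (circles), A1BG (diamond) and A1BG-AS1 (square), with a dashed line where the changes are equal. Both axes share the siCtrl arrays. A1BG lies well below the line, at 2.47 and 0.75, while KNG1, FETUB and HPX lie above it.

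Transcription factors of hepatocytes were looked at beside A1BG, with 10 of 26 listed genes measured. After sißCat-mut 7 rose and 2 fell, after sißCat-WT 1 rose and 1 fell, and after sißCat-both 5 rose and 1 fell, where 25.6%, 10.2% and 33.6% of all genes were called. The medians were 0.38, 0.08 and 0.19. The onecut factor ONECUT1 rose by 1.80 ± 0.08 after sißCat-mut and by 2.15 ± 0.08 after sißCat-both, and the nuclear receptor PPARA rose by 0.89 ± 0.10 and 1.39 ± 0.10 (limma adjusted p = 7.19e-09, 5.54e-10, 2.09e-05 and 2.39e-07). PPARA also fell by 0.60 ± 0.10 after sißCat-WT (limma adjusted p = 0.00174). FOXA1 and FOXA3, forkhead factors that open liver enhancers, rose by 0.40 ± 0.08 and 0.46 ± 0.08 after sißCat-mut (limma adjusted p = 0.00299 and 0.000679). FOXA2 had a change of -0.01 ± 0.07 there (limma adjusted p = 0.95). FOXA1 and FOXA2 were named after their values were seen. TBX3, of the same list, ran in the reverse order of A1BG, with means of 9.81 after sißCat-WT, 9.30 after siCtrl, 9.16 after sißCat-both and 8.92 after sißCat-mut. It rose by 0.52 ± 0.09 after sißCat-WT and fell by 0.37 ± 0.09 after sißCat-mut (limma adjusted p = 0.00196 and 0.00647). The difference of sißCat-both from siCtrl (-0.14 ± 0.09) and from sißCat-mut (0.24 ± 0.09) did not pass for TBX3 (limma adjusted p = 0.287 and 0.0744). From sißCat-mut to sißCat-both 3 of the 10 rose and 2 fell (22.2% of all genes called). FOXA1 and FOXA3 fell by 0.39 ± 0.08 and 0.34 ± 0.08 (limma adjusted p = 0.00443 and 0.00649), while GATA6, PPARA and ONECUT1 rose by 0.56 ± 0.07, 0.50 ± 0.10 and 0.35 ± 0.08 (limma adjusted p = 0.000127, 0.00264 and 0.00474). GATA6, an endoderm factor, fell by 0.85 ± 0.07 after sißCat-mut (limma adjusted p = 2.16e-06).

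CRISP3, the known partner of the protein, stood at group means of 3.63 to 3.75, below the array medians, so these arrays say little about its RNA. It had log2 changes of -0.11 ± 0.13, -0.09 ± 0.13 and 0.01 ± 0.13 after sißCat-WT, sißCat-mut and sißCat-both (limma adjusted p = 0.744, 0.695 and 0.97). Of the 10 measured genes of its family, the CAP proteins, GLIPR1 alone passed the test in each comparison with siCtrl, where 10.2%, 25.6% and 33.6% of all genes were called after sißCat-WT, sißCat-mut and sißCat-both. It rose by 0.42 after sißCat-WT, fell by 0.60 after sißCat-mut and rose by 0.32 after sißCat-both (limma adjusted p = 0.0129, 0.000377 and 0.0169), opposite in sign to A1BG after both single knockdowns. The calls of GLIPR1 after sißCat-WT and sißCat-both ended without siCtrl replicate 1 (adjusted p = 0.062 and 0.0746), and also without sißCat-WT replicate 3 (0.0597) and sißCat-both replicate 3 (0.0731), which left 0 of the 10 genes called.

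The genes most related to A1BG by their immunoglobulin-like domains lie in the leukocyte receptor complex of the same chromosome arm, and 5 of 26 listed were measured. After sißCat-WT and after sißCat-mut 0 of the 5 passed limma's test, and 1 (LAIR2) had an unadjusted p under 0.05 in each (10.2% and 25.6% of all genes were called). LAIR2, a soluble collagen receptor, had log2 changes of -0.48 ± 0.19 and -0.49 ± 0.19 in those comparisons (limma adjusted p = 0.152 and 0.0794) and of -0.94 ± 0.19 after sißCat-both (limma adjusted p = 0.00154). Its group means, 3.70 after siCtrl and 2.76 after sißCat-both, lay below the array medians, so the size of that difference is uncertain. Its change passed after sißCat-WT without sißCat-mut replicate 3 (adjusted p = 0.0257) and after sißCat-mut without sißCat-mut replicate 1 (adjusted p = 0.00914). LAIR2 was the 1 of the 5 called after sißCat-both, where 33.6% of all genes were called. By limma 0 of the 5 were called higher after any knockdown, and with so few genes nothing is read from that count.

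SMAD7, an inhibitor of TGF-β signalling that has been studied together with A1BG-AS1 in liver cancer, was measured. It rose by 0.65 ± 0.18 after sißCat-WT and by 0.76 ± 0.18 after sißCat-both (limma adjusted p = 0.0368 and 0.00441), and its change after sißCat-mut was -0.46 ± 0.18 (limma adjusted p = 0.0842). It stood 1.22 ± 0.18 higher after sißCat-both than after sißCat-mut (limma adjusted p = 0.000278), where A1BG-AS1 stood lower. The sißCat-WT call ended with arrays centred on their median (adjusted p = 0.0507) and without siCtrl replicates 1 or 2 or sißCat-WT replicates 2 or 3 (0.0833 to 0.155), and the sißCat-mut change passed without siCtrl replicate 1 (0.0381) and with the replicate number as a block (0.00122).

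The pair was set beside the other 286 pairs in which a gene and its -AS1 RNA were both measured. After sißCat-mut both partners passed the test in 13 pairs, 10 in 1 direction and 3 in opposite directions. In 69 pairs the sense gene alone passed and in 11 the antisense RNA alone (25.6% of all single genes were called). After sißCat-both 17 pairs changed in 1 direction and 10 in opposite directions (33.6% of all single genes were called). Whether such joint calls exceed those of unrelated genes was not tested. The 3 pairs whose smaller change was largest after sißCat-both all fell: TMEM51 and its antisense RNA by 1.29 and 1.16, PCNA, the replication clamp, and its antisense RNA by 1.09 and 1.02, and WWTR1, the co-activator TAZ, and its antisense RNA by 0.83 and 0.93. Of the 3 pairs ranked first in the same way after sißCat-mut, ISM1 fell by 1.25 while its antisense RNA rose by 0.63. TMPO and its antisense RNA fell by 0.81 and 0.57, and WWTR1 and its antisense RNA by 0.61 and 0.56. The count of 10 pairs in 1 direction after sißCat-mut was 6 without siCtrl replicate 1 and 5 without sißCat-mut replicate 3.

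The genes whose values ran most like each member were named by Pearson correlation over the 12 arrays, among 4114 genes whose group means spanned at least 0.5 on the log2 scale. These correlations mostly reflect the 4 groups, are descriptions and carry no p. For A1BG they were MPC1, a subunit of the mitochondrial pyruvate carrier (r = 0.984), the asialoglycoprotein receptor subunit ASGR2 (0.983), DHCR7 of cholesterol synthesis (0.983), the histidine-degrading enzyme FTCD (0.982), PCSK1N (0.982) and the antiviral gene SHFL (0.981). In all 153 genes had a correlation over 0.9 with A1BG. Their changes were smaller than that of A1BG: after sißCat-mut MPC1 stood 1.15 and SHFL 1.39 above siCtrl, and after sißCat-WT SHFL stood 0.58 below it (log2 change -0.58). The most opposite were the cilium gene BBS5 (r = -0.975), the BMP signal transducer SMAD9 (-0.974) and UTP25 (-0.973), a factor of ribosome assembly. A1BG-AS1 itself had r = 0.943 with A1BG, while their Spearman correlation over the 12 arrays was 0.727.

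For A1BG-AS1 the most like were the T-box gene TBX10 (r = 0.976), DHDH (0.957), the fatty acid elongase ELOVL6 (0.956), the fatty acid desaturase FADS2 (0.953), LBHD1 (0.951) and HES6 (0.949). ELOVL6 had log2 changes of 0.65 after sißCat-mut and 0.04 after both sißCat-WT and sißCat-both, close to the shape of A1BG-AS1. TBX10 stood 1.82 above siCtrl after sißCat-mut and, unlike A1BG-AS1, 0.58 below it after sißCat-WT (log2 change -0.58). The most opposite was SMAD6 (r = -0.961), an inhibitor of BMP signalling, at -1.03 after sißCat-mut. By Spearman correlation 1 of the 6 genes most like A1BG and 3 of the 6 most like A1BG-AS1 were the same, so the order among so many near-equal genes depends on the measure.

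**Figure D4:**
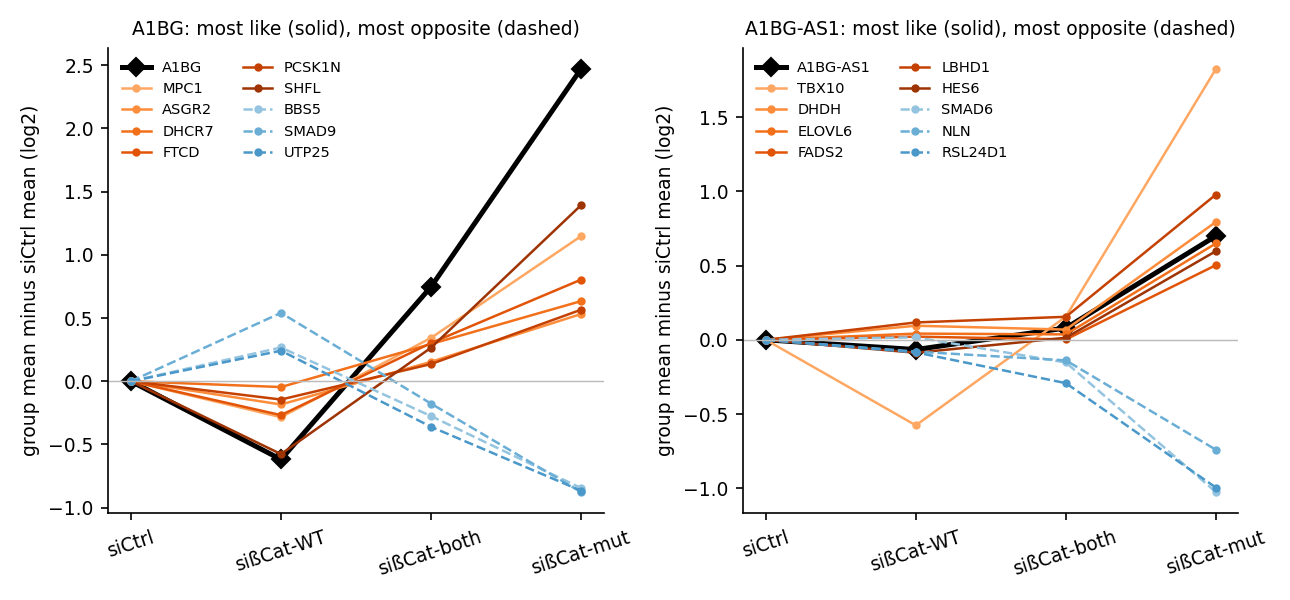
Group means minus the siCtrl mean (vertical axis, log2) in the 4 groups for A1BG (left) and A1BG-AS1 (right, black lines), the 6 genes most like each (solid) and the 3 most opposite (dashed), by Pearson correlation over 12 arrays. A1BG has the steepest line of its panel, at -0.62, 0.75 and 2.47, and the A1BG-AS1 line leaves 0 only after sißCat-mut, at 0.70.

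The arrays themselves were alike. Across genes, arrays of 1 group had correlations of 0.994 to 0.997, and identical values were found in 0 of 66 pairs of arrays. Hepatocyte and hepatoblast markers (10 of 12 listed were measured) included ALB, APOB and AFP at group means of 12.61 to 13.53. Their mean level per array was 11.42 to 11.46 after siCtrl, 11.377 to 11.380 after sißCat-WT, 11.53 to 11.60 after sißCat-both and 11.72 to 11.74 after sißCat-mut, so the mean had the same order as A1BG, and its part in the result was not tested. Among the single markers only AFP, TTR and TF had that order of group means. From sißCat-mut to sißCat-both 0 of the 10 rose and 3 fell by limma's test (22.2% of all genes were called). From siCtrl to sißCat-both 6 rose and 3 fell by limma's test, where 33.6% of all genes were called. KRT18 stood at 11.59 after siCtrl and 10.83 after sißCat-both, and KRT8 at 7.04 and 6.41. ALB stood at 13.53 after sißCat-both and 13.45 after sißCat-mut, the reverse of A1BG, and TTR went from 11.70 after siCtrl to 13.15 after sißCat-mut. Fibroblast markers (3 of 8 measured) had mean levels of 3.91 to 4.39 over all arrays and endothelial markers (5 of 7) of 4.22 to 4.50. These means lay under the array medians, but DES stood at group means of 5.88 to 6.74 and LYVE1 at 4.50 to 5.43. Leukocyte markers (4 of 10) had mean levels of 6.84 to 7.06, with LYZ highest at group means of 11.60 to 12.72. CD14 at 5.47 to 6.17 and CSF1R at 5.15 to 5.60 also lay above the array medians, while NCAM1 stood at 4.08 to 4.25. Cholangiocyte markers (4 of 5) had mean levels of 7.86 to 7.93 after siCtrl, 7.89 to 8.03 after sißCat-WT, 7.66 to 7.86 after sißCat-mut and 7.41 to 7.53 after sißCat-both, and their part in the results was not tested. Among them SOX9 stood at 10.76 after siCtrl, 9.88 after sißCat-mut and 9.21 after sißCat-both.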

How the data were processed

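Biotin-labelled single-stranded cDNA from 12 HepG2 samples was measured on Affymetrix arrays, as the labels' protocols describe. The authors deposited 53617 probe sets per array on a log2 scale, inferred from the range of 1.63 to 14.08. The submitters' processing notes name RMA and Affymetrix Expression Console 1.1. RMA equalises array distributions. The number of arrays limits the precision.

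A platform annotation table gave 16098 probe sets 1 gene symbol, 0 several and left 37519 unnamed. The probe set with the highest mean was kept for 779 genes with several, leaving 14884 genes, with no filter on dim genes. limma 3.58.1 in R 4.3.3 (lmFit, eBayes) fitted 4 group means to all 12 arrays with 8 residual degrees of freedom. Tests were two-sided, Benjamini-Hochberg adjusted over all genes within each of 7 contrasts, and called at 0.05. On simulated data for sißCat-WT against siCtrl over 14884 genes, the fit recovered 70.1% of 67 genes given a log2 change of 0.5, 98.5% of 67 at 1 and 100% of 66 at 2. Of its 190 calls, 11 were false.

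The members and all lists were chosen with earlier results of these data known. Named genes were the members, 10 measured genes on either side and list members with the 4 largest called changes against siCtrl. Examples are given from these list members. The 6 most like and 3 most opposite genes were named too, with 3 other pairs each for sißCat-mut and sißCat-both. Exceptions are stated. Groups and replicate numbers came from the sample titles. Deviations from group means of same-numbered arrays correlated above 0.1 in all 3 pairs for sißCat-WT and sißCat-both (0.115, 0.155 and 0.134), so by that rule, from the data and not the labels, numbers pair these arrays, and they do not for the other comparisons. Alternatives covered normalization, centring, dim genes, probe set choice, prior, groups fitted, array weights, replicate block and arrays left out. Summaries and figures used Python 3.11.15 and matplotlib 3.10.9.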

Additional observations from a re-analysis of the deposited data

Results flagged for a closer look

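A1BG is listed because every sißCat-WT array lay below and every sißCat-mut array above all siCtrl arrays: its log2 changes were -0.62 and 2.47. The difference between these was not tested, because the gene was chosen on these values. Among the 20 neighbouring genes, 3 departed from additivity of the single knockdowns by limma's interaction contrast at an adjusted p under 0.05 (16.4% of all genes did). The called departures were positive, at 0.56 for ZNF544 (limma adjusted p = 0.0226), 0.89 for ZNF329 (0.00129) and 0.99 for ZNF256 (3.78e-05). Those of A1BG and A1BG-AS1 were negative. That of ZNF584 was also negative, at -0.70 ± 0.23, and did not pass (limma adjusted p = 0.0524). The median departure of the 20 neighbours was -0.05, beside -0.02 over all genes. The ZNF544 call ended without siCtrl replicate 2 (0.0566) or sißCat-WT replicate 3 (0.054). Groups of 3 arrays are too small for a test of single outlying arrays.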

How the results depend on the processing

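The differences of both members moved by less than 1 SD of the replicates under all alternatives tried: renewed quantile normalization, median centring, leaving out dim genes, the mean of probe sets, other priors, only the groups compared, array weights, the replicate block, both first arrays of sißCat-mut and sißCat-both left out, and each array left out. Each member has 1 probe set, and a prior or a balanced replicate block cannot change a difference of means. Nor can the removal of other genes, the choice of groups fitted or an array outside the comparison. Leaving out 1 of 3 arrays moves a group mean by only part of that group's SD, so staying within 1 SD says little for those settings. A1BG ranged from -0.75 to -0.50 after sißCat-WT, 2.38 to 2.54 after sißCat-mut and 0.54 to 0.88 after sißCat-both, and A1BG-AS1 from -0.13 to 0.02, 0.66 to 0.75 and -0.02 to 0.16. Over 114 changes of named neighbours and list genes, 2434 of 2496 values stayed on their side of the threshold, 47 lost a call, 15 gained one and 0 reversed.

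Counts that moved were small, and the cause was not tested. The neighbours of the locus called after sißCat-WT numbered 0 with 5 neighbours on either side, and after sißCat-mut 1 with renewed quantile normalization and 1 without the first arrays of sißCat-mut and sißCat-both. Leaving out 1 array gave 0 to 1 neighbours called after sißCat-WT, 0 to 2 after sißCat-mut, 2 to 5 after sißCat-both, 1 to 3 for sißCat-mut minus sißCat-WT and 3 to 8 for sißCat-both minus sißCat-WT. The leukocyte receptor complex relatives called numbered 1 after sißCat-WT with only the groups compared, and 1 after sißCat-mut with the replicate block or without both first arrays; leaving out 1 array gave 0 to 1 in both. For the CAP family it gave 0 to 1 after sißCat-WT and after sißCat-both. The gene studied with A1BG-AS1 was called in 0 cases after sißCat-WT with median centring and in 1 after sißCat-mut with array weights or the replicate block, and leaving out 1 array gave 0 to 1.

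Other sense and antisense pairs called in 1 direction after sißCat-WT numbered 7 with array weights and 2 without both first arrays, beside 4. For sißCat-both minus sißCat-mut they numbered 6 with only the groups compared and 6 with array weights, beside 10, and for the departure from additivity 8 with the replicate block, beside 4. Leaving out 1 array gave 0 to 5 after sißCat-WT, 5 to 13 after sißCat-mut, 11 to 22 for sißCat-mut minus sißCat-WT, 4 to 12 for sißCat-both minus sißCat-mut and 1 to 6 for the departure from additivity. Where an array left a group with 2, the spread was pooled over all groups. CRISP3 and LAIR2 lay below the array medians, which limits what their values show.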
